A study of Arabidopsis thaliana with 12 samples.

Results

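Transcript levels of 10 genes of jasmonate synthesis and response were examined in norflurazon-grown Arabidopsis seedlings, 10 of 38093 genes listed. The members were taken by their gene codes: lipoxygenase LOX2 (AT3G45140), allene oxide synthase AOS (AT5G42650), the allene oxide cyclases AOC1 (AT3G25760), AOC2 (AT3G25770) and AOC4 (AT1G13280), OPDA reductase OPR3 (AT2G06050), the repressors JAZ1 (AT1G19180) and JAZ10 (AT5G13220), and the vegetative storage proteins VSP1 (AT5G24780) and VSP2 (AT5G24770). The rule itself uses gene codes and no measured value. RNA was sequenced from wild-type plants of the Col-0 ecotype, gun1-1, gun4-1 and gun5-1, in 12 libraries, 3 for each genotype. All 4 groups, the control included, were germinated on 5 µM norflurazon, which blocks carotenoid synthesis and leaves plastids to bleach under light, and were 5 d old. The light was continuous at 100 µE. The labels name 1 allele per mutated gene and whole seedlings as the material, whereas the design text speaks of leaf RNA. A piperonylic acid treatment of gun5-1 is also mentioned in the protocol, and the labels of the 12 libraries do not carry it.

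Jasmonates are lipid-derived hormones whose synthesis begins in the plastid. Linolenic acid released from plastid membranes is oxygenated by 13-lipoxygenases such as LOX2 and converted by AOS and the AOC enzymes to OPDA. OPDA is reduced by OPR3 in the peroxisome and shortened by beta-oxidation to jasmonic acid. The isoleucine conjugate binds the receptor COI1, which leads to degradation of JAZ repressors and frees transcription factors such as MYC2. The synthesis genes, the JAZ genes and VSP1 and VSP2 are themselves known targets of the pathway in wounded or jasmonate-treated leaves. GUN1, GUN4 and GUN5 act in signalling from plastid to nucleus; GUN5 is the H subunit of magnesium chelatase (CHLH) and GUN4 its regulator.

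Values are FPKM, which divides fragments by the length of the transcript and by the total mapped, so that levels of different genes can be set side by side. The authors' deposited tables give 1 FPKM value per group, pooled over its 3 libraries, in 3 tables that each pair a mutant with Col-0. Spread between libraries and depth are unknown, and no error can be put on a single FPKM value. The Col-0 values come from the same libraries in each table and differ by the authors' scaling, by 1.07 times in the gun4-1 table and 0.984 times in the gun5-1 table relative to the gun1-1 table. Where a gene had several transcripts, that of the highest mean level stands for it. A gene is called higher or lower where Cuffdiff, the authors' program, tested it and gave a q-value under 0.05. The standard error (SE) of a log2 fold change was derived from the deposited statistic and p-value, whichever gave the larger error. These errors are cautious, since the deposited p-values correspond to statistics about 1.74 times the deposited ones, and an interval can include 0 for a called gene. Where the p-value is the smallest listed, 5e-05, an SE taken from it is a fixed share of the fold change and measures no spread.

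None of the targeted genes was called lower in its own mutant. In the authors' deposited tables GUN1 was listed at 149 FPKM in Col-0 and 137 in gun1-1, GUN4 at 2.21 and 3.67 in gun4-1, and CHLH at 189 and 683 in gun5-1. A point mutation can leave transcript levels unchanged, so these levels do not check the genotype labels. Among all tested genes in the authors' deposited tables, 33.7% were called in gun1-1 (18.7% higher and 15% lower), 14.1% in gun4-1 (8.21% higher and 5.92% lower) and 29.5% in gun5-1 (16.4% higher and 13.1% lower). The median log2 fold change of all tested genes was -0.02, -0.003 and -0.02.

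Of the 10 members, 3 of the 7 tested in gun1-1 passed the authors' threshold. AOC2 and JAZ10 rose and AOC4 fell. In gun4-1 none of the 6 tested members was called by Cuffdiff, and 0 had an unadjusted p under 0.05. In gun5-1, 2 of the 7 tested were called: AOC2 rose and JAZ1 fell. The share of called genes among all tested, given above, was near that of the members in gun1-1 and gun5-1, so these counts do not set the members apart. The median log2 fold change of the tested members was -0.49 in gun1-1, 0.04 in gun4-1 and -0.04 in gun5-1. AOC2, under 1 FPKM in Col-0, was tested only in gun1-1 and gun5-1, where its mutant value was high. The counts and medians of those mutants thus include a gene that was tested because it rose. LOX2, VSP1 and VSP2 fell below the authors' test filter in every table.

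**Figure D1:**
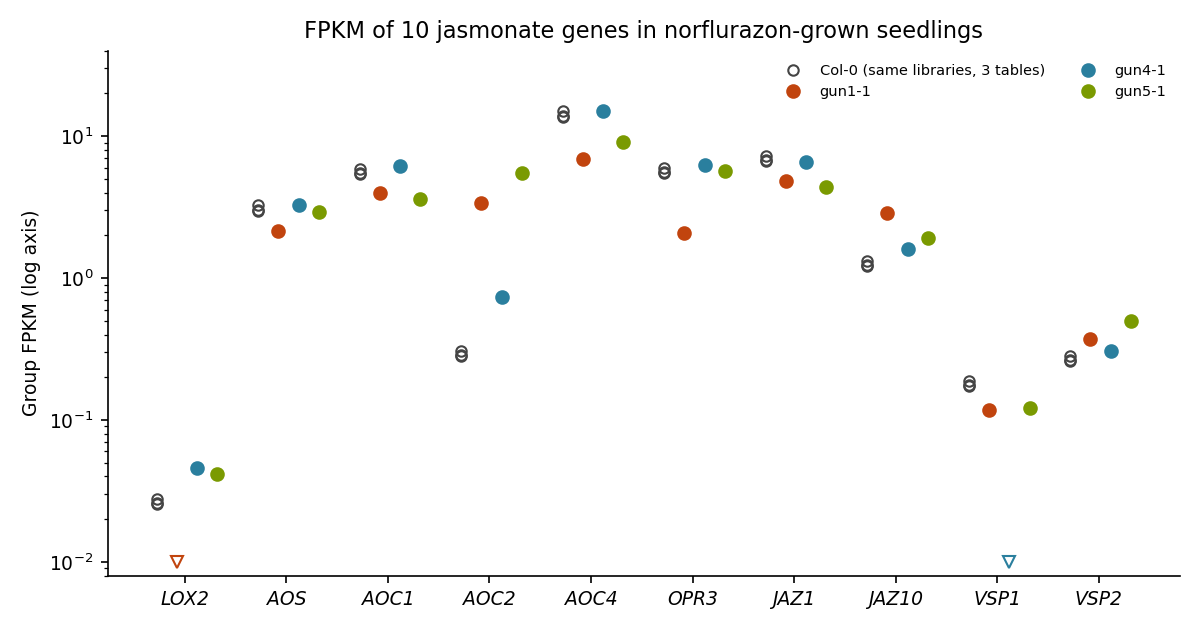
Group FPKM (log axis) of the 10 genes in Col-0 and the 3 mutants, 1 point per group and table; open triangles at the bottom stand for values listed at 0. LOX2, VSP1 and VSP2 lie below 1 FPKM in every group. In Col-0 AOC2 lies between 0.281 and 0.307 FPKM, and among the mutants it ranges from 0.733 in gun4-1 to 5.48 in gun5-1.

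**Figure D2:**
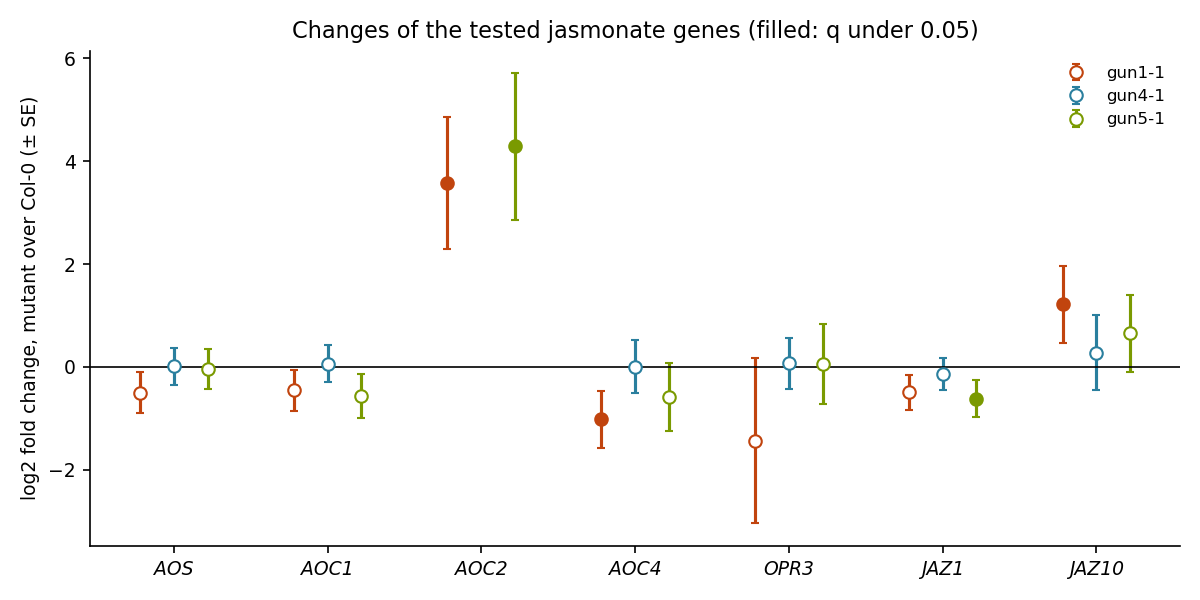
Log2 fold change of each tested gene in each mutant over Col-0, with bars of ± 1 SE; filled points have a q-value under 0.05. AOC2 stands at 3.57 in gun1-1 and 4.28 in gun5-1. It was not tested in gun4-1 and has no point there. The gun4-1 points of the other genes lie between -0.14 and 0.28.

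LOX2, the 13-lipoxygenase that supplies most jasmonate precursor in wounded leaves, was close to undetected. Its locus is chr3:16525245-16529352 on the plus strand (RefSeq TAIR10.1). LOX2 was listed at 0.0259 FPKM in Col-0 and at 0 in gun1-1. In the gun4-1 table it stood at 0.0279 FPKM in Col-0 and 0.0458 in the mutant, and in the gun5-1 table at 0.0255 and 0.0417. None of these pairs was tested by the authors, and at unknown depth no difference between them can be read.

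LOX6, a 13-lipoxygenase known for basal and root jasmonate production, held 94.9% of the summed FPKM of the 4 13-lipoxygenase genes in Col-0. LOX3 and LOX4, at most 0.251 FPKM in Col-0, supplied nearly all of the rest. LOX6 stood at 8.49 FPKM in Col-0 and 5.10 in gun1-1. The gun4-1 table gave 9.12 and 10.02 FPKM, and the values of gun5-1 were 8.36 in Col-0 and 8.81 in the mutant. LOX6 fell in gun1-1 by 0.74 on the log2 scale (SE 0.22, q = 0.000376 in the authors' deposited table). Its log2 fold changes of 0.13 in gun4-1 (SE 0.21, q = 0.574) and 0.08 in gun5-1 (SE 0.21, q = 0.703) were not called in those deposited tables.

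AOS, the plastid cytochrome P450 that commits the lipoxygenase product to the jasmonate branch, lies at chr5:17097564-17099595 on the minus strand (RefSeq TAIR10.1) and has 1 exon. Its promoter is printed because it is the only promoter among the 10 members with the G-box CACGTG, the core element bound by MYC2 and by other bHLH and bZIP factors. The window runs from 250 bases before the annotated start to 50 after it, 300 bases in all, at chr5:17099546-17099845 on the minus strand (RefSeq TAIR10.1, 5′ to 3′), with the G-box in capitals.
AOS promoter: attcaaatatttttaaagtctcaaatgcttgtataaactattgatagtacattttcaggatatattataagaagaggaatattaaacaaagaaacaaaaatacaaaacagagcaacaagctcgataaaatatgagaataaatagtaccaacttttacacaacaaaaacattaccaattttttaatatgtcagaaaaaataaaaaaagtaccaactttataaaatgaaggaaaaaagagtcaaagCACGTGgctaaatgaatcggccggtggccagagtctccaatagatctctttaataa
The G-box began 6 bases before the start site, and the motif reads the same on both strands. It was found in 7.68% of 27443 promoters of the same length. AOS stood at 3.03 FPKM in Col-0 and 2.15 in gun1-1. It stood at 3.26 FPKM in Col-0 and 3.29 in gun4-1, and at 2.98 and 2.91 in the gun5-1 table. The gun1-1 value was the lowest, with a log2 fold change of -0.50 (SE 0.39, unadjusted p = 0.0291, q = 0.0949) in the authors' deposited table, which was not called. The 95% intervals of the log2 fold change ran from -0.68 to 0.71 in gun4-1 and from -0.79 to 0.71 in gun5-1, in the authors' deposited tables with the derived SE.

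AOC1, AOC2 and AOC3 are neighbouring genes on the plus strand of chromosome 3, and AOC4 lies alone on chromosome 1. AOC1 occupies chr3:9403779-9405338 and AOC2 chr3:9406669-9408071 (RefSeq TAIR10.1). The gap between AOC1 and AOC2 is 1330 bases, and 1088 bases separate AOC2 from AOC3. All 4 encode allene oxide cyclases, plastid enzymes that set the stereochemistry of OPDA. The coding sequences of AOC1 and AOC2 were 90.3% identical over 762 aligned bases, and those of AOC1 and AOC4 76.0%. The longest stretch of identical bases in the AOC1 and AOC2 transcripts is shown because fragments that fall wholly inside it could come from either gene; it lies in the coding sequence of both and has 47 bases.
AOC1 and AOC2 shared run: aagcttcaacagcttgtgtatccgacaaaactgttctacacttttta
AOC3 shares longer identical runs, 73 bases with AOC1 and 50 with AOC2, so fragments could also be divided with that gene. The read length is not given in the sources used here.

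AOC2 showed the largest fold changes among the members. The group FPKM of AOC2 was 0.286 in Col-0 and 3.40 in gun1-1. In the gun5-1 table it was 0.281 in Col-0 and 5.48 in the mutant. In the gun4-1 table AOC2 stood at 0.307 FPKM in Col-0 and 0.733 in the mutant, below the authors' test filter, and was not tested. All 3 mutant values were above their Col-0 value, with gun4-1 the lowest of the 3. AOC2 rose 11.9-fold in gun1-1, a log2 fold change of 3.57 (SE 1.28, q = 0.0234) in the authors' deposited table. AOC2 rose 19.5-fold in gun5-1, a log2 fold change of 4.28 (SE 1.42, q = 0.0143) in the authors' deposited table. On the log2(FPKM + 1) scale, which damps changes from a low base, the differences were 1.77 and 2.34. AOC2 was under 1 FPKM in Col-0 and was tested only in the tables where the mutant value was higher, so its inclusion among tested genes depended on that rise.

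AOC1 did not show this pattern. AOC1 was at 5.48 FPKM in Col-0 and 4.0 in gun1-1, at 5.88 and 6.16 in the gun4-1 table, and at 5.39 and 3.64 in the gun5-1 table. The log2 fold changes of AOC1 were -0.45 in gun1-1 (SE 0.40, q = 0.144), 0.07 in gun4-1 (SE 0.36, q = 0.908) and -0.57 in gun5-1 (SE 0.43, q = 0.0947), none called in the authors' deposited tables. The unadjusted p was 0.0496 in gun1-1 and 0.0261 in gun5-1 in those deposited tables. The sum of AOC1 and AOC2, which depends less than either gene on how fragments shared by the pair were divided, was 5.76 FPKM in Col-0 and 7.40 in gun1-1. This sum was 6.19 and 6.90 FPKM in the gun4-1 table and 5.67 and 9.12 in the gun5-1 table, and the authors gave no test of it.

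AOC4 was the most abundant cyclase transcript in Col-0. Its annotated locus is chr1:4547388-4548894 on the plus strand (RefSeq TAIR10.1). AOC4 stood at 13.9 FPKM in Col-0 and 6.89 in gun1-1, at 15.0 and 15.0 in the gun4-1 table, and at 13.7 and 9.12 in the gun5-1 table. Levels were lowest in gun1-1, intermediate in gun5-1 and level with Col-0 in gun4-1. AOC4 fell in gun1-1 by 1.02 on the log2 scale (SE 0.56, q = 0.0113 in the authors' deposited table); the cautious 95% interval ran from -2.10 to 0.07. The log2 fold changes of 0.01 in gun4-1 (SE 0.52, q = 0.992) and -0.59 in gun5-1 (SE 0.66, q = 0.294) were not called in the authors' deposited tables. In the authors' assembly AOC4 shares a locus with its upstream neighbour on the same strand, AT1G13270, a methionine aminopeptidase gene (MAP1C). AT1G13270 was listed at 89.2 FPKM in Col-0 and 56.7 in gun1-1 (log2 fold change -0.65, q = 0.000376), at 95.7 and 108 in the gun4-1 table, and at 87.7 and 106 in the gun5-1 table (log2 fold change 0.28, q = 0.0400) of the authors' deposit. Its part in the AOC4 value was not tested.

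AOC3 was listed at 2.52 FPKM in Col-0 and 2.15 in gun1-1, at 2.71 and 2.77 in the gun4-1 table and at 2.48 and 1.57 in the gun5-1 table, and was called in none of the authors' deposited tables. The summed FPKM of the 4 cyclase genes was 22.2 in Col-0 and 16.4 in gun1-1. It was 23.9 and 24.7 in the gun4-1 table, and 21.9 and 19.8 in the gun5-1 table. The makeup of this sum departed from that of Col-0 mainly in gun1-1 and gun5-1. AOC2 made up 1.29% of it in Col-0, 20.7% in gun1-1, 2.97% in gun4-1 and 27.7% in gun5-1. AOC4 made up 62.7% in Col-0, 41.9% in gun1-1, 60.9% in gun4-1 and 46.0% in gun5-1. These shares come from pooled group values and carry no error.

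**Figure D3:**
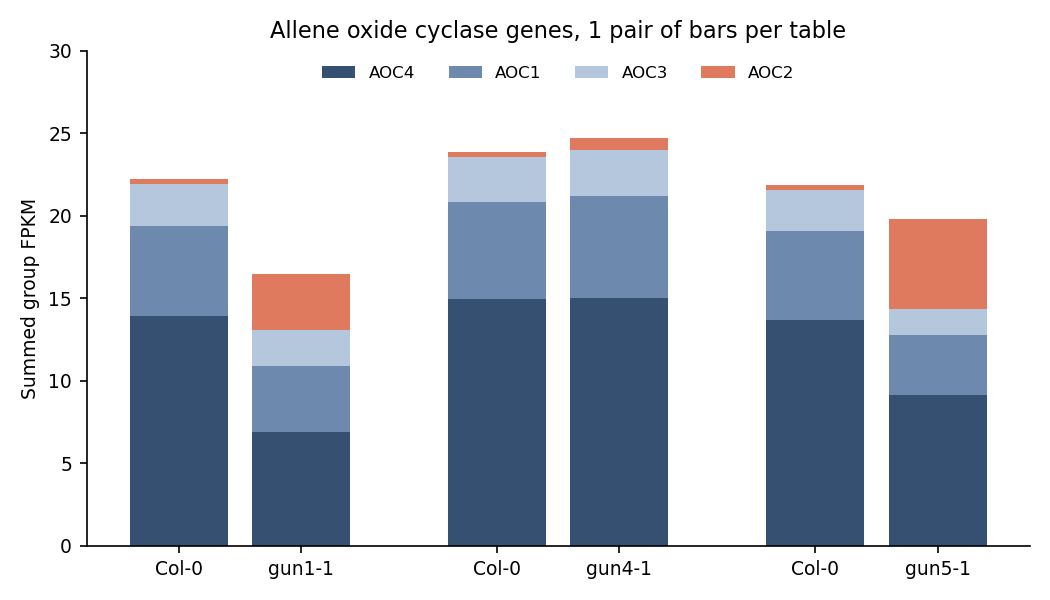
Summed group FPKM of the 4 allene oxide cyclase genes, stacked by gene, with a pair of bars (Col-0, mutant) for each of the 3 tables. The AOC2 segment grows from 0.286 to 3.40 FPKM in gun1-1 and from 0.281 to 5.48 in gun5-1, while the AOC4 segment shrinks from 13.9 to 6.89 in gun1-1.

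The promoters of AOC1 and AOC2 are printed because these adjacent and closely related genes stood apart in gun1-1 and gun5-1. Each covers 250 bases before to 50 after the annotated start (RefSeq TAIR10.1, plus strand, 5′ to 3′), at chr3:9403529-9403828 for AOC1 and chr3:9406419-9406718 for AOC2. Capitals mark CACGTT, which is AACGTG on the other strand, a G-box variant that MYC factors also bind.
AOC1 promoter: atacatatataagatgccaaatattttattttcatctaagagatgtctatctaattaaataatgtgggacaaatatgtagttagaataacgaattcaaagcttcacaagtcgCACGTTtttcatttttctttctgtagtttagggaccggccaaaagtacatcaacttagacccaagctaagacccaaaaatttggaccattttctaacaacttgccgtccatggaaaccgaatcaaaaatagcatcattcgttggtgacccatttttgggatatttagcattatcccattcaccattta
AOC2 promoter: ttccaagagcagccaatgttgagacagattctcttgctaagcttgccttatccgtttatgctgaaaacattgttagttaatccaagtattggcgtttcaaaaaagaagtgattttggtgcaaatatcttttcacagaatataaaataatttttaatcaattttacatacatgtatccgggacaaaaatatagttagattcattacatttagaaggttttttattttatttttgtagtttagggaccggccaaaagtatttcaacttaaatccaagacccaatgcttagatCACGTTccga
Both strands were searched for CACGTG and AACGTG, which cannot occupy the same bases. AACGTG began 138 bases before the start in AOC1 and 40 bases after it in AOC2, and also occurred in the VSP1 promoter. In all, 3 of the 10 members held AACGTG against 8.95% of 27443 promoters, and 4 of 10 held either motif against 15.8%. These matches are letters in a window and were not tested as binding sites. Outside the motifs, the longest run of identical bases in both promoters had 26 bases, beginning 117 bases before the start in AOC1 and 19 bases before it in AOC2.
AOC1 and AOC2 promoter shared run: tgtagtttagggaccggccaaaagta

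OPR3, the peroxisomal OPDA reductase, lies at chr2:2359114-2362375 on the minus strand (RefSeq TAIR10.1) and was listed with 3 transcripts. The leading transcript, TCONS_00022880, stood at 5.58 FPKM in Col-0 and 2.07 in gun1-1, at 5.99 and 6.30 in the gun4-1 table, and at 5.49 and 5.71 in the gun5-1 table. The gun1-1 value of this transcript was the lowest, but its log2 fold change of -1.43 had an SE of 1.60 and a q of 0.310 in the authors' deposited table. The log2 fold change was 0.07 in gun4-1 (SE 0.49, q = 0.924) and 0.06 in gun5-1 (SE 0.78, q = 0.943) in the authors' deposited tables. The second transcript, TCONS_00022881, was at 4.65 FPKM in Col-0 and 3.26 in gun1-1, 4.98 and 4.87 in the gun4-1 table, and 4.57 and 3.28 in the gun5-1 table. The third, TCONS_00022882, was under 0.001 FPKM in Col-0 and at 1.44 in gun1-1, 0.436 in gun4-1 and 0.310 in gun5-1, and it was tested in the gun1-1 table only (q = 0.412 in the authors' deposited table). Summed over the 3 transcripts, OPR3 stood at 10.2 FPKM in Col-0 and 6.77 in gun1-1, at 11.0 and 11.6 in the gun4-1 table, and at 10.05 and 9.30 in the gun5-1 table. The summed difference in gun1-1, -0.59 on the log2 scale, was smaller than that of the leading transcript, and the authors gave no test of it.

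JAZ1, a repressor that binds MYC factors and is degraded when COI1 perceives the hormone, lies at chr1:6621777-6623668 on the plus strand (RefSeq TAIR10.1). Of its 3 transcripts, only TCONS_00002232 exceeded 1 FPKM. JAZ1 stood at 6.80 FPKM in Col-0 and 4.84 in gun1-1, at 7.31 and 6.62 in the gun4-1 table, and at 6.69 and 4.37 in the gun5-1 table. Each mutant value was below its Col-0 value. JAZ1 fell in gun5-1 by 0.62 on the log2 scale (SE 0.36, q = 0.0227 in the authors' deposited table), with a cautious 95% interval from -1.32 to 0.09. The log2 fold change of -0.49 in gun1-1 (SE 0.34, q = 0.0529) was just short of the threshold in the authors' deposited table, and -0.14 in gun4-1 (SE 0.31, q = 0.723) was not called. Adjusting the authors' p-values over the representative transcripts alone, in place of all transcripts, brought JAZ1 in gun1-1 under the threshold.

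JAZ10, a repressor known for splice variants that resist degradation and dampen the jasmonate response, lies at chr5:4218786-4221077 on the plus strand (RefSeq TAIR10.1) and was listed with 7 transcripts. The leading transcript, TCONS_00051672, stood at 1.23 FPKM in Col-0 and 2.88 in gun1-1. It stood at 1.33 and 1.61 FPKM in the gun4-1 table and at 1.21 and 1.91 in the gun5-1 table. Each mutant value was above its Col-0 value, and gun1-1 was the highest. JAZ10 rose 2.33-fold in gun1-1, a log2 fold change of 1.22 (SE 0.75, q = 0.0343) in the authors' deposited table, with a cautious 95% interval from -0.25 to 2.69. The log2 fold changes of 0.28 in gun4-1 (SE 0.73, q = 0.769) and 0.66 in gun5-1 (SE 0.74, q = 0.303) were not called in the authors' deposited tables.

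The other 6 JAZ10 transcripts were under 1 FPKM in every group and were not tested. TCONS_00051674 stood at 0.209 FPKM in Col-0 and 0.704 in gun1-1, 0.224 and 0.610 in the gun4-1 table, and 0.205 and 0.153 in the gun5-1 table. TCONS_00051678 stood at 0.107 and 0.489 FPKM in the gun1-1 table, 0.115 and 0.0623 in the gun4-1 table, and 0.105 and 0 in the gun5-1 table. TCONS_00051673 stood at 0.0174 and 0.231 FPKM in the gun1-1 table, 0.0188 and 0.102 in the gun4-1 table, and 0.0172 and 0 in the gun5-1 table. All 3 of these minor transcripts were highest in gun1-1 and lowest in gun5-1. TCONS_00051677 was at 0.141 FPKM in Col-0 and under 0.001 in gun1-1, at 0.150 and under 0.001 in the gun4-1 table, and at 0.138 and 0.115 in the gun5-1 table. The remaining TCONS_00051675 and TCONS_00051676 stayed at or under 0.0185 FPKM. Summed over all 7 transcripts, JAZ10 stood at 1.73 FPKM in Col-0 and 4.30 in gun1-1, 1.85 and 2.38 in the gun4-1 table, and 1.70 and 2.18 in the gun5-1 table. The annotated long non-coding gene AT5G02045 overlaps the 5′ end of JAZ10 on the other strand. The labels do not state a strand-specific library, so fragments inside the overlap of the pair could not be told apart. AT5G02045 was listed at 0 in all groups.

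**Figure D4:**
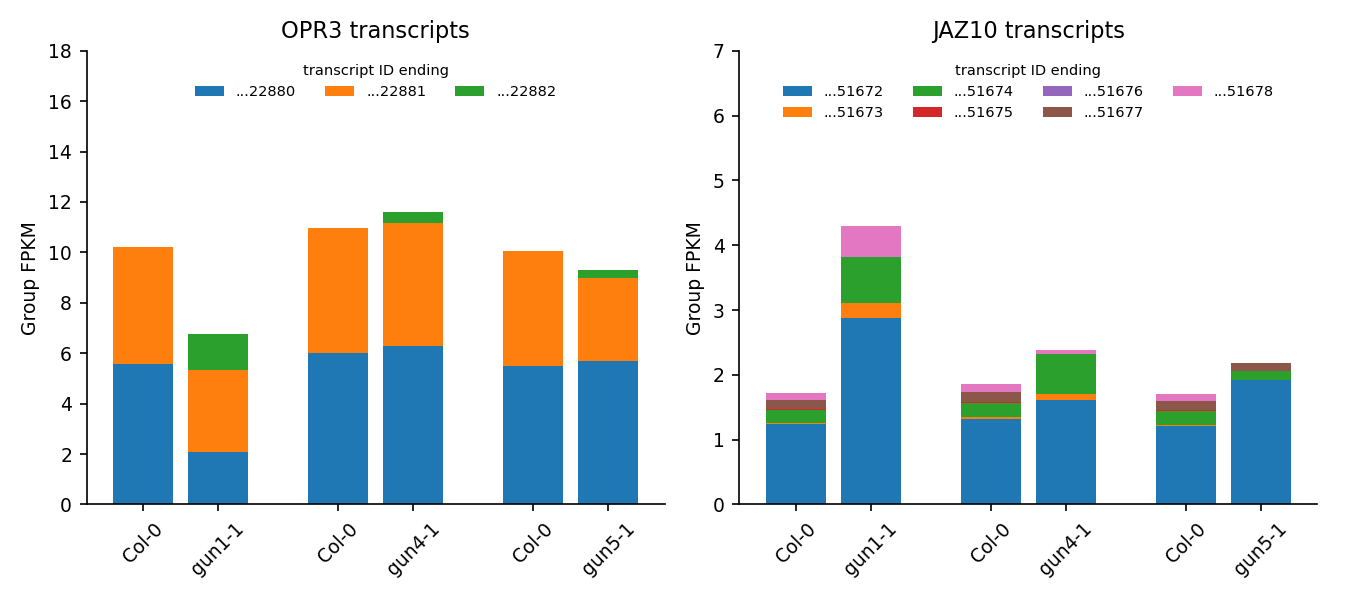
Group FPKM of the 3 OPR3 and 7 JAZ10 transcripts, stacked, with a pair of bars (Col-0, mutant) for each table; the key gives the last digits of each transcript's ID. The leading OPR3 transcript shrinks from 5.58 to 2.07 in gun1-1 and the leading JAZ10 transcript grows from 1.23 to 2.88.

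VSP1 and VSP2, vegetative storage proteins related to acid phosphatases and standard reporters of the MYC branch of the response, were low in every group. VSP1 (chr5:8507590-8509201) and VSP2 (chr5:8500468-8502224) lie 5365 bases apart on the minus strand (RefSeq TAIR10.1), and their coding sequences were 90.4% identical over 795 aligned bases. The longest run of identical bases in their transcripts is printed for the same reason as that of the cyclases; it is coding in both genes and has 54 bases.
VSP1 and VSP2 shared run: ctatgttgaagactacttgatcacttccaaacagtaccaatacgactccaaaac
The leading VSP1 transcript stood at 0.176 FPKM in Col-0 and 0.118 in gun1-1, at 0.190 and 0 in the gun4-1 table, and at 0.174 and 0.122 in the gun5-1 table. VSP2 stood at 0.263 FPKM in Col-0 and 0.374 in gun1-1, at 0.282 and 0.306 in the gun4-1 table, and at 0.259 and 0.498 in the gun5-1 table. Summed over both genes, all transcripts included, the pair stood at 0.618 FPKM in Col-0 and 0.492 in gun1-1, 0.662 and 0.394 in the gun4-1 table, and 0.607 and 0.673 in the gun5-1 table. Neither gene was tested by the authors in any table. Differences at these levels were not detectable here.

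In Col-0, the order of the members by FPKM was AOC4, JAZ1, OPR3, AOC1, AOS, JAZ10, AOC2, VSP2, VSP1 and LOX2, from 13.9 to 0.0259 in the gun1-1 table. With 1 value per group and no spread, neighbours in this order, such as OPR3 and AOC1 at 5.58 and 5.48 FPKM, cannot be told apart. The median Col-0 FPKM of all tested genes in that table was 11.5, so that AOC4 alone lay above it. AOC2 was below JAZ10 in Col-0 and gun4-1 and above AOS in gun1-1 and gun5-1.

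Whether the members responded differently between mutants was tested by the difference of their log2 fold changes. The mutants share the Col-0 libraries, and p-values were adjusted over all genes tested in both tables. At an adjusted p under 0.05, 3.58% of all genes differed between gun1-1 and gun4-1, 0.967% between gun1-1 and gun5-1 and 0.583% between gun5-1 and gun4-1. None of the 6, 7 and 6 members compared was among them by this normal test, and 0 had an unadjusted p under 0.05 in any pair. The member nearest to the threshold was AOC4 between gun1-1 and gun4-1, where the difference was -1.02 on the log2 scale (95% interval -2.51 to 0.47). For AOC2 the difference of gun1-1 minus gun5-1 was -0.71, with a 95% interval from -4.47 to 3.04, which spans large differences both ways. AOC2 could not be compared with gun4-1, where it was not tested. For JAZ10 the difference of gun1-1 minus gun4-1 was 0.94 (95% interval -1.10 to 2.99), and for JAZ1 that of gun5-1 minus gun4-1 was -0.47 (95% interval -1.41 to 0.46). The shared Col-0 spread is counted in both fold changes, which widens these intervals beyond the already cautious SE. By this test, a gene called in a single mutant is not shown to differ between mutants, nor shown to respond alike.

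The wider pathway was followed in 6 lists with 58 other genes, of which 40 were tested in each table. In gun1-1, 7 of these rose and 10 fell (42.5% called, against 33.7% of all genes) in the authors' deposited table. In gun4-1, 4 rose and 3 fell (17.5%, against 14.1%), and in gun5-1, 9 rose and 5 fell (35%, against 29.5%), in the authors' deposited tables. The median log2 fold change of the 40 was -0.16, 0.02 and 0.03. Against all tested genes these shares were somewhat higher, and no test of the lists was made. Counts of the single lists and of the markers below rest on few genes and are to be read beside these shares of all genes.

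**Figure D5:**
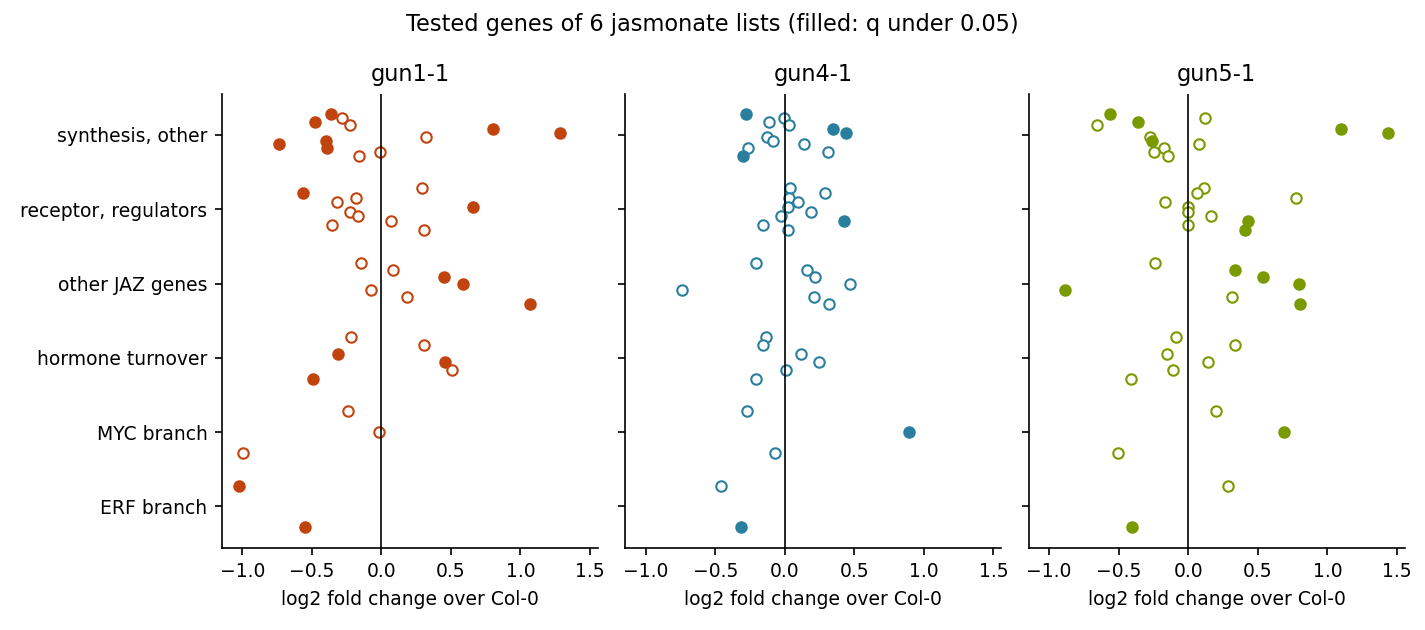
Log2 fold change over Col-0 of every tested gene in 6 jasmonate lists, a panel per mutant and a point per gene; filled points have a q-value under 0.05. In gun1-1 and gun5-1 the desaturases FAD7 and FAD8 are at 0.80 and 1.28 and at 1.10 and 1.43, with JAZ9 between them in gun1-1 at 1.07.

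Among 16 other synthesis genes, 12 were tested; 2 rose and 5 fell in gun1-1, 2 rose and 2 fell in gun4-1, and 2 rose and 3 fell in gun5-1. The genes that rose were the plastid omega-3 desaturases FAD7 and FAD8, which make the linolenic acid of plastid membranes and serve photosynthetic membranes at large. FAD7 stood at 97.0 FPKM in Col-0 and 169 in gun1-1, at 104 and 132 in the gun4-1 table, and at 95.4 and 205 in the gun5-1 table, with log2 fold changes of 0.80 (SE 0.20), 0.35 (SE 0.17) and 1.10 (SE 0.27) in the authors' deposited tables. FAD8 stood at 44.9 FPKM in Col-0 and 109 in gun1-1, at 48.2 and 65.3 in the gun4-1 table, and at 44.1 and 119 in the gun5-1 table, with log2 fold changes of 1.28 (SE 0.32), 0.44 (SE 0.18) and 1.43 (SE 0.35) in the authors' deposited tables. In gun1-1 and gun5-1 the SE of both desaturases came from the smallest listed p-value and measures no spread. The annotated gene AT5G05590 overlaps FAD8 on the other strand, so fragments inside the overlap of that pair could not be told apart. ACX1, a peroxisomal acyl-CoA oxidase of beta-oxidation, fell in all 3 mutants, by 0.36 (SE 0.16) in gun1-1, 0.28 (SE 0.17) in gun4-1 and 0.56 (SE 0.18) in gun5-1 on the log2 scale of the authors' deposited tables. The others that fell were LOX6, AIM1, MFP2 and KAT2 in gun1-1, PXA1 in gun4-1, and AIM1 and KAT2 in gun5-1. In gun4-1, ACX1 (q = 0.0477) and PXA1 (q = 0.0488) were just under the threshold in the authors' deposited table. AIM1, MFP2 and KAT2, further enzymes of peroxisomal beta-oxidation, were named after their values were seen; KAT2, the most abundant, stood at 159 FPKM in Col-0 and 120 in gun1-1. The leading transcript of JAR1, which conjugates jasmonic acid to isoleucine, was called in no deposited table (q = 0.502, 0.831 and 0.345). Its log2 fold change in gun5-1 was -0.27. Summed over 6 transcripts, JAR1 stood at 23.0 FPKM in Col-0 and 26.5 in gun1-1. The sums were 24.7 and 26.8 in the gun4-1 table and 22.6 and 29.1 in the gun5-1 table, and were not tested.

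Among 10 other JAZ genes, 7 were tested; 3 rose and 0 fell in gun1-1, none was called by Cuffdiff in gun4-1 (3 at an unadjusted p under 0.05), and 4 rose and 1 fell in gun5-1. JAZ9 stood at 22.8 FPKM in Col-0 and 47.9 in gun1-1, at 24.5 and 30.6 in the gun4-1 table, and at 22.5 and 39.3 in the gun5-1 table. It rose by 1.07 on the log2 scale in gun1-1 (SE 0.26, q = 0.000376) and 0.81 in gun5-1 (SE 0.26, q = 0.000420) in the authors' deposited tables. The JAZ9 SE in gun1-1 came from the smallest listed p-value and measures no spread. JAZ2 rose by 0.45 (SE 0.25) and 0.54 (SE 0.25) and JAZ3 by 0.59 (SE 0.33) and 0.80 (SE 0.33) in gun1-1 and gun5-1, on the log2 scale of the authors' deposited tables. JAZ12, the most abundant JAZ transcript in Col-0 at 47.4 FPKM, rose to 59.7 in gun5-1 (log2 fold change 0.33, SE 0.22, q = 0.0314). JAZ4 fell there from 4.77 to 2.58 (log2 fold change -0.89, SE 0.51, q = 0.0256), both in the authors' deposited table. Summed over its 4 transcripts, the JAZ4 change in gun5-1 was -0.48 on the log2 scale and was not tested. JAZ5, JAZ7 and JAZ8, known as strongly jasmonate-inducible, were at most 0.645 FPKM in any group and not tested. JAZ1 and JAZ4 thus fell in gun5-1, the mutant in which JAZ2, JAZ3, JAZ9 and JAZ12 rose. At q under 0.01, JAZ1, JAZ4 and JAZ12 were no longer called.

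The receptor COI1 and the factors MYC2 and MYC3 were called in no deposited table. COI1 stood at 17.1 FPKM in Col-0 and 20.9 in gun1-1, and MYC2 at 9.96 and 8.50. Of the 10 genes in this list, all tested, 1 rose and 1 fell in gun1-1, 1 rose in gun4-1 and 2 rose in gun5-1. In gun1-1 the transcriptional repressor JAM1 fell from 10.3 to 6.99 FPKM (log2 fold change -0.56, SE 0.23, in the authors' deposited table) and JAV1, a negative regulator of jasmonate defence, rose from 4.25 to 6.71. MYC4 rose in gun4-1 from 7.83 to 10.5 FPKM and in gun5-1 from 7.17 to 9.67. The co-repressor TPL rose in gun5-1 from 47.5 to 63.1 FPKM.

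Of 7 genes of hormone turnover, 6 were tested. In gun1-1 the amidohydrolase ILL6 rose from 5.75 to 7.88 FPKM, while the related IAR3 fell from 23.4 to 18.9 and the hydroxyjasmonate sulfotransferase ST2A from 7.33 to 5.22. None was called by Cuffdiff in gun4-1 or gun5-1, with 0 and 1 at an unadjusted p under 0.05. The hydroxylases CYP94B1 and CYP94B3, which start catabolism of the active conjugate, were tested and called in no deposited table.

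Most response genes outside the members were under 1 FPKM in Col-0. Of 8 genes of the MYC branch, 3 were tested and 5 were under 1 FPKM in Col-0, among them THI2.1, TAT3 and NATA1, listed at 0 there. CLH1, a chlorophyllase known to respond to methyl jasmonate, stood at 13.9 FPKM in Col-0 and 13.7 in gun1-1. CLH1 rose in gun4-1 from 14.9 to 27.7 FPKM (log2 fold change 0.89, SE 0.22, q = 0.00103) and in gun5-1 from 13.6 to 22.0 (log2 fold change 0.69, SE 0.23, q = 0.000420) in the authors' deposited tables. In gun1-1 no gene of this list was called by Cuffdiff, and 1, JAL35, had an unadjusted p under 0.05. The leading JAL35 transcript stood at 44.7 FPKM in Col-0 and 22.5 in gun1-1 (log2 fold change -0.99, SE 0.76, q = 0.101 in the authors' deposited table). Its log2 fold changes of -0.07 in gun4-1 and -0.51 in gun5-1 were not called either. ANAC055, at 9.62 FPKM in Col-0, was called in no deposited table. Of 7 genes of the ethylene-dependent ERF branch, 2 were tested; PDF1.2A, PDF1.2B and PDF1.2C, the plant defensin reporters, were listed at 0 in all groups. PR4, a hevein-like protein, fell in all 3 mutants, from 49.5 to 33.8 FPKM in gun1-1, from 53.1 to 42.7 in gun4-1 and from 48.6 to 36.8 in gun5-1. The PR4 call in gun4-1 was just under the threshold (q = 0.0495 in the authors' deposited table). The basic chitinase CHI-B fell in gun1-1 from 3.36 to 1.65 FPKM.

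Markers of both organs were present. In Col-0 all 7 root and all 6 shoot markers stood above 1 FPKM. The summed shoot markers stood at 119 FPKM in Col-0 and 184 in gun1-1, 128 and 157 in the gun4-1 table, and 117 and 151 in the gun5-1 table. The summed root markers stood at 79.0 and 84.4 FPKM, 84.9 and 77.2, and 77.8 and 72.8. Of the root markers, 1 rose and 4 fell in gun1-1, and 1 rose and 2 fell in gun4-1 and in gun5-1, in the authors' deposited tables. Of the shoot markers, 3 rose and 1 fell in gun1-1, and 3 rose and 0 fell in gun4-1 and in gun5-1. The largest root change was a rise of SCR in gun1-1, from 17.8 to 38.4 FPKM. Every other root marker had a negative log2 fold change there, called or not, so the higher root sum in gun1-1 came from SCR alone. The part of organ proportions in the jasmonate values was not tested, and in whole-seedling RNA fewer cells of a type and less RNA per cell cannot be told apart.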

How the data were processed

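Total RNA of 5 d old seedlings was sequenced after oligo(dT) selection, per the labels' protocols. Reads were processed with Trimmomatic, TopHat, Cufflinks and Cuffdiff, per the submitters' processing notes; their versions, the genome build, annotation and read length are not stated there. The authors deposited 3 Cuffdiff tables of 64480 transcripts with group FPKM values. The deposited log2 fold changes set each mutant against Col-0, and the deposited score is the Cuffdiff statistic. The authors' p-values are accompanied by q-values, their adjustment across tested transcripts. No values per library are given, so depth and replicate spread are unknown, and p-values measure what the authors' test took from 3 libraries a group.

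Calls needed status OK and q under 0.05. The SE was the larger of the size of the log2 fold change over the deposited statistic and over the normal quantile of the p-value. Intervals are 1.96 SE to either side. Differences between mutants were divided by the root of the summed squared SE, and read against the normal distribution, two-sided, adjusted after Benjamini-Hochberg over all genes. This step was tried on simulated data with independent errors and large planted differences, without the shared Col-0. That trial does not measure its power for differences as small as those of the members. Members and lists were chosen with earlier results of these data known. Named were all members with their transcripts, the mutated genes, the homologues of members (AOC3 and the other JAZ genes) and, per list and comparison, the 3 called genes with the largest change. COI1, MYC2, MYC3, JAR1, CYP94B1, CYP94B3, AIM1, MFP2, KAT2, the neighbour of AOC4 and the untested response genes were named after their values were seen. So were JAL35 and ANAC055. In 4 cases a listed name was not paired with its code by the reference and was dropped. Names, positions, coding sequences and promoters come from RefSeq TAIR10.1, in which 8 of 10 members have the span of the deposited tables and 77.2% of 34288 single-gene spans match; coding sequences were aligned with Biopython 1.88. Calculations used Python 3.11.15 with pandas 2.3.3, SciPy 1.17.1 and statsmodels 0.14.6. Alternatives covered the transcript that stands for a gene, the q threshold, the adjustment, a minimum of 5 FPKM, a pseudocount of 1 FPKM, summed transcripts, centring and the SE.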

Additional observations from a re-analysis of the deposited data

How the results depend on the processing

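Of 80 alternative values of the members' 20 log2 fold changes, 78 lay within 1 SE of the main value; the 2 others were AOC2 on the log2(FPKM + 1) scale, 1.77 in gun1-1 and 2.34 in gun5-1. No called value changed sign. Within 1 SE, summing transcripts turned the uncalled OPR3 value in gun5-1 from 0.06 to -0.11, took OPR3 in gun1-1 from -1.43 to -0.59 and took JAZ10 in gun5-1 from 0.66 to 0.36. JAZ10 on the log2(FPKM + 1) scale was 0.80 in gun1-1, 0.17 in gun4-1 and 0.40 in gun5-1. At q under 0.01 the members called numbered 0 in gun1-1 and 0 in gun5-1, and with at least 5 FPKM in a group 1 remained in gun1-1, AOC4. Adjusted over representative transcripts, 4 were called in gun1-1, with JAZ1 added. Of the 39 alternative counts, 35 stayed within 1.5 times; the last that moved was the other pathway genes in gun4-1, 3 at q under 0.01 in place of 7, an alternative chosen after seeing the data. No member differed between mutants under any SE, centring or FPKM minimum tried; the lowest adjusted p was 0.0976, for AOC4 between gun1-1 and gun4-1 with the SE from the p-value alone. The genes that differed among all were 662, 177 and 107 (gun1-1 against gun4-1, gun1-1 against gun5-1, gun5-1 against gun4-1). They numbered 3396, 1090 and 1324 with the SE from the p-value alone, and 1168, 320 and 518 with the SE from the statistic alone. With the statistic alone used only where the p-value was the smallest listed, a choice made after seeing the data, they numbered 1144, 313 and 511. No paired analysis was possible because the deposited tables give 1 value per group, and for the same reason the replicate block and leaving out each replicate were not run.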
